A study of Mus musculus with 2 samples.

Results

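The genes described here encode the 4 lecticans (Acan, Bcan, Ncan and Vcan), the 4 hyaluronan and proteoglycan link proteins (Hapln1 to Hapln4) and the tenascins C and R (Tnc and Tnr). They were taken by name, not by level, and all 10 were found among the 43346 genes of the tables, with 33 transcripts. RNA came from the hindbrain of embryos of mouse strain B6NCrl at embryonic day 15.5, healthy and of both sexes. The series holds 1 group of 2 libraries and no treatment, mutant or other stage: replicate 1 was a pool of 78 embryos and replicate 2 a pool of 62, and 10 ng of RNA over 200 nt, plus spike-in RNA, went into each library. Levels are in TPM, a relative abundance of transcripts corrected for length and sequencing depth, and a gene is called detected where each library has at least 1 TPM. With no contrast between conditions no test was possible, so values are set beside the spread of the 2 pools.

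Lecticans are chondroitin sulfate proteoglycans with an N-terminal domain that binds hyaluronan and a C-terminal lectin-like domain that binds tenascins. Link proteins resemble the N-terminal domain and clamp a lectican to the hyaluronan chain, while trimeric tenascin R and hexameric tenascin C crosslink the far ends. In the embryonic brain this matrix is loose and rich in neurocan, versican and tenascin C. The condensed perineuronal nets of the mature hindbrain, which need link proteins, aggrecan and tenascin R, form after birth.

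Depth was similar, with estimated gene counts of 40020322 (replicate 1) and 43263959 (replicate 2). All 8 genes that mark hindbrain position were detected, led by Hoxd3 at 41.4 and 39.9 TPM and Gbx2 at 31.0 and 34.7 TPM in replicates 1 and 2. Of 6 forebrain genes 1 was detected, and the libraries differed in some of them, in both directions. Six3 and Emx2, both named after their values were seen, lay within 1.5-fold, at 0.851-fold and 0.967-fold (replicate 2 over replicate 1). Lhx2 had 50.7 and 9.96 TPM in replicates 1 and 2, Tbr1 0.80 and 2.63 TPM, and Emx1, named after its values were seen, 0.03 and 1.52 TPM. The part of this difference in the values below was not tested. In whole tissue, fewer cells of a type and less RNA per cell cannot be told apart.

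RNA levels of the 10 genes fell into tiers. Neurocan, brevican, tenascin C and versican lay between 26.1 and 144 TPM, tenascin R and Hapln3 at 3.88 and 1.98 TPM, and Hapln4, Hapln2, Hapln1 and aggrecan below 1 TPM. Detected were 6 of 10, beside 63.1% of 21461 nuclear protein-coding genes, so that share is close to the background. The median over the 10 was 2.93 TPM, beside 5.72 TPM over all nuclear protein-coding genes. Levels within the set differed widely: its members range from the 27.8th percentile of those genes for Acan to the 95.2th for Ncan.

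**Figure D1:**
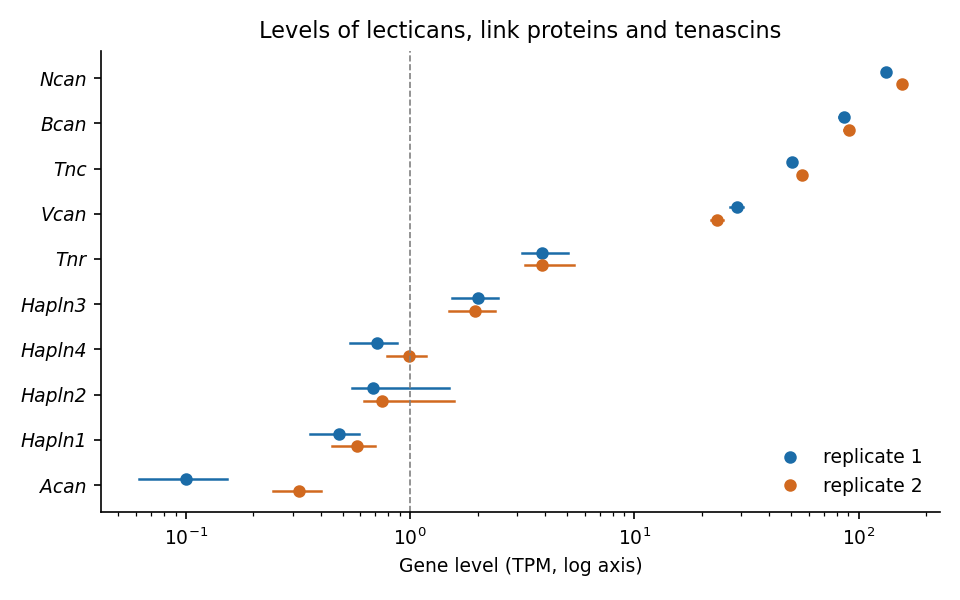
Level of each gene in TPM on a log axis, 1 point per library (replicate 1 blue, replicate 2 orange), with a line for the interval the deposited tables give for each estimate; the dashed line marks 1 TPM. Ncan is highest at 132 and 156 TPM, and Acan is lowest at 0.10 and 0.32 TPM.

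Among the lecticans, neurocan held most of the RNA. Ncan (ENSMUSG00000002341, chr8:70093085-70120873, minus strand, GRCm38), a lectican made almost solely in the nervous system, had 132 TPM in the first pool and 156 TPM in the second, a mean of 144 ± 16.7 TPM (SD, n = 2). Bcan (ENSMUSG00000004892, chr3:87987531-88000230, minus strand), whose product brevican is known as the main lectican of the adult brain, had 85.8 and 90.6 TPM, or 88.2 ± 3.42 TPM (SD, n = 2). Both libraries of Ncan lay above both of Bcan.

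Vcan (ENSMUSG00000021614, chr13:89655312-89742509, minus strand), which encodes versican, a lectican also made by mesenchyme and vessels, had 28.7 and 23.5 TPM, or 26.1 ± 3.67 TPM (SD, n = 2). Acan (ENSMUSG00000030607, chr7:79053483-79115099, plus strand), which encodes aggrecan, the lectican of cartilage and of perineuronal nets, had 0.10 and 0.32 TPM, from 19 and 64 counts. Of the summed lectican TPM, Ncan took 53.5% in replicate 1 and 57.6% in replicate 2, Bcan 34.8% and 33.6%, Vcan 11.6% and 8.69%, and Acan 0.0405% and 0.118%. The order of the 4 lecticans was the same in both libraries and no neighbours in it overlapped.

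Link protein RNA was scarce beside that of the lecticans. Hapln3 (ENSMUSG00000030606, chr7:79115102-79131018, minus strand), the link protein known for its wide expression outside the brain, was the only detected member of the 4, at 2.00 and 1.95 TPM. Its 1 transcript is typed in GENCODE M21 as subject to nonsense-mediated decay, but has another length there (1191 nt against 1433 nt in the tables). Hapln4 (ENSMUSG00000007594, chr8:70083457-70090862, plus strand), a brain link protein of perineuronal nets and hindbrain synapses, had 0.71 and 0.99 TPM and missed the minimum in replicate 2 by 0.01 TPM. Hapln2 (ENSMUSG00000004894, chr3:88021750-88027583, minus strand), the link protein of nodes of Ranvier in myelinated fibres, had 0.68 and 0.75 TPM. Hapln1 (ENSMUSG00000021613, chr13:89539796-89611652, plus strand), the cartilage link protein that is also used in perineuronal nets, had 0.48 and 0.58 TPM.

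All 4 rested on few reads, between 29 and 94 counts per library. Summed TPM was 3.87 and 4.27 for the link proteins against 247 and 270 for the lecticans, a ratio of 63.7 in replicate 1 and 63.2 in replicate 2. The mean ratio was 63.5 ± 0.341 (SD, n = 2). With so few link protein reads, the closeness of these 2 values is no measure of the precision of the ratio. Hapln3 alone made up 51.7% of the link protein sum in replicate 1 and 45.7% in replicate 2.

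Tenascin C was far above tenascin R. Tnc (ENSMUSG00000028364, chr4:63959785-64047015, minus strand), the tenascin of radial glia and of embryonic matrix, had 50.7 and 56.2 TPM, or 53.5 ± 3.90 TPM (SD, n = 2). Tnr (ENSMUSG00000015829, chr1:159523769-159931729, plus strand), the tenascin of oligodendrocytes and of perineuronal nets, had 3.87 and 3.89 TPM. The ratio of Tnc to Tnr was 13.1 in replicate 1 and 14.4 in replicate 2. Of the Tnr TPM in this ratio, 43.2% in replicate 1 and 50.0% in replicate 2 belonged to a transcript with no coding sequence. The other tenascin genes were near 0, with Tnxb at 0.25 and 0.22 TPM and Tnn at 0.06 and 0.09 TPM.

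Over all 10 genes ordered by mean TPM, 8 of the 9 pairs of neighbours had both libraries of the higher gene above both of the lower. The exception was Hapln4 and Hapln2. By posterior mean TPM their order was the other way, with Hapln2 at 0.99 and 1.06 and Hapln4 at 0.71 and 0.98, and all 9 pairs were apart. When the bounds of the deposited intervals are compared in place of the libraries, 6 of the 9 remain apart, since the intervals of the low genes are wide. The largest of the 9 steps was from Vcan to Tnr, at 6.72-fold.

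Each lectican gene lies beside a link protein gene, a known arrangement of this family. No other protein-coding gene is annotated between the partners of any of the 4 pairs. Acan and Hapln3 point towards each other and end 2 bases apart, Ncan and Hapln4 also point towards each other with 2222 bases between them, and so do Vcan and Hapln1 with 43659 bases. Bcan and Hapln2 follow each other on the same strand, 21519 bases apart.

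In 3 of the 4 pairs the lectican was higher in both libraries. Ncan stood 186-fold above Hapln4 in replicate 1 and 157-fold in replicate 2, Bcan 126-fold and 121-fold above Hapln2, and Vcan 59.7-fold and 40.5-fold above Hapln1. Only in the pair on chromosome 7 was the link protein higher: the ratio of Acan to Hapln3 was 0.05 and 0.164. As the ends of Acan and Hapln3 nearly touch, reads that run past either end may be given to the other where strand is not used, and the strand setting is not given in the sources used here.

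Versican is made in forms that differ in 2 long exons for chondroitin sulfate attachment: V0 has both, V1 only the beta exon, V2 only the alpha exon and V3 neither. In Vcan-203, the form with both, alpha is exon 7 (chr13:89702918-89705797, 2880 nt) and beta exon 8 (chr13:89688285-89693501, 5217 nt). The 4 complete forms are set apart by the joins around these exons, shown here because the levels below rest on them. Each line gives 25 bases before the join in lower case and 25 after it in capitals, 5′ to 3′ on the minus strand of GRCm38, from the GENCODE M21 transcripts.
V0 and V2, exon 6 to alpha: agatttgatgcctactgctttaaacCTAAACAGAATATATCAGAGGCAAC
V0, alpha to beta: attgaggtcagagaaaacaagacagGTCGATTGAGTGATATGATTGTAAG
V1, exon 6 to beta: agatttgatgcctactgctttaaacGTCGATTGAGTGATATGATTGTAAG
V2, alpha to the exon after beta: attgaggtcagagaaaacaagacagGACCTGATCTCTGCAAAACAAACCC
V3, exon 6 to the exon after beta: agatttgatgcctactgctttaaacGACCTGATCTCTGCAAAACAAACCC

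The join from alpha to beta occurs in 1 M21 transcript, as does each of the joins of V1, of V3 and of V2 past alpha, while the join into alpha occurs in 2. Vcan-203 (V0) led at 11.3 and 10.8 TPM, with deposited intervals of 10.5 to 11.5 and 9.99 to 10.97 TPM. Vcan-201 (V3), the form with no chondroitin sulfate exon, had 8.86 and 7 TPM, with intervals of 6.99 to 10.0 and 5.16 to 8.23 TPM, below those of V0 in both libraries. Vcan-202 (V2), known as the form of myelinated adult brain, had 1.75 and 1.85 TPM, and Vcan-206 (V1) had 0.68 and 0.72 TPM.

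Of the TPM in complete forms, V0 thus held 49.9% and 52.9% and V3 39.3% and 34.4%. The alpha exon was present in 57.7% and 62.0%, and the beta exon in 52.9% and 56.4%. By estimated counts, which weight long transcripts, V0 held 76.6% and 78.1% of all Vcan reads and V3 10.9% and 9.16%. The annotated 3' exons also differ, with 2047 nt in Vcan-203, 1019 nt in Vcan-206, 714 nt in Vcan-202 and 303 nt in Vcan-201. The split between the forms therefore rests on these annotated ends as well as on the joins. The other 5 Vcan transcripts are fragments of 294 to 2273 nt and summed to 6.11 and 3.15 TPM.

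**Figure D2:**
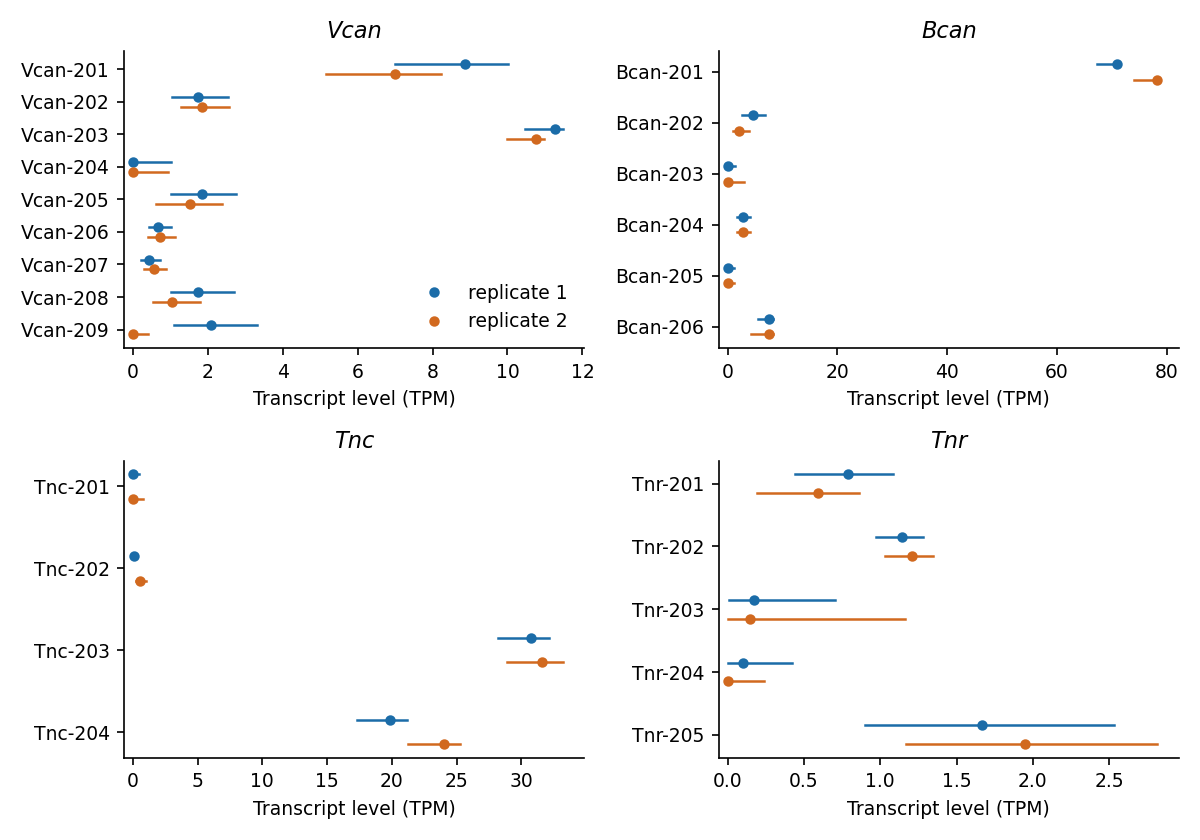
Level of every annotated transcript of Vcan, Bcan, Tnc and Tnr in TPM, 1 point per library (replicate 1 blue, replicate 2 orange), with the deposited interval as a line. Vcan-203 and Vcan-201 stand above the other Vcan transcripts, Bcan-201 holds most of Bcan, Tnc is divided between Tnc-203 and Tnc-204, and the intervals of Tnr-205 overlap those of Tnr-202.

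Brevican RNA was mostly of 1 form. Bcan-201, which encodes the secreted protein, had 71.0 and 78.3 TPM, or 82.8% and 86.3% of the gene. The other 5 transcripts, 4 of them annotated as retaining an intron, together held 17.2% and 13.7%. The highest of these, Bcan-206, was singled out after its values were seen. It had 7.46 and 7.49 TPM and reads from exon 8 of Bcan-201 straight into the next intron, as does Bcan-203, which was listed at 0 in both libraries. Both are annotated with no coding sequence. A brevican form with a lipid anchor and no lectin-like domain is known as background. The joins that part them, again with 25 bases on each side and the second side in capitals, on the minus strand of chromosome 3, are these.
Bcan-201, exon 8 to exon 9: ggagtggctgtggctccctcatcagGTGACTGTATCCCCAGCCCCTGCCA
Bcan-203 and Bcan-206, exon 8 into the intron: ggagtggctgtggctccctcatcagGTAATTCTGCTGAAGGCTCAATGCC

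Tenascin C carries fibronectin type III repeats that are spliced in or out, and its RNA was divided between a longer and a shorter coding form. Tnc-203 had 30.7 and 31.6 TPM, with intervals of 28.2 to 32.1 and 28.9 to 33.2 TPM. Tnc-204 had 19.9 and 24.0 TPM, with intervals of 17.3 to 21.2 and 21.2 to 25.3 TPM, below Tnc-203 in both libraries. Their shares of the gene were 60.6% and 56.3% for Tnc-203 and 39.2% and 42.7% for Tnc-204.

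Tnc-203 has 1 coding exon more than Tnc-204, exon 14 at chr4:63984460-63984732 on the minus strand, with 273 nt or 91 codons. It is printed whole, from the M21 transcript, because its presence is what lengthens the coding sequence from 6057 to 6330 nt.
Tnc-203, exon 14: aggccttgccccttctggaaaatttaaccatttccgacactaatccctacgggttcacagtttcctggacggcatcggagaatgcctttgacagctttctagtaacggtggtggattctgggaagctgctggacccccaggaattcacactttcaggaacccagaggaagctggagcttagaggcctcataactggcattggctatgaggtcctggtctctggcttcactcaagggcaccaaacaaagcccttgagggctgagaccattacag
Tnc-203, exon 13 to exon 14: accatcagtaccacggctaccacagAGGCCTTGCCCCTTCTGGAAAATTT
Tnc-204 (and Tnc-201), the same exon joined past exon 14: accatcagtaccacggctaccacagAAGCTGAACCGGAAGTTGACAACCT

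The forms differ at the 5' end too: Tnc-204 starts with a 267-nt exon of its own at position 64047015, and Tnc-203 at 64020725. Tnc-201, which has the start of Tnc-203 and lacks exon 14, was listed at 0 in both libraries with upper bounds of 0.477 and 0.765 TPM. The deposited split is thus one of start and exon together, and a Tnc RNA with exon 14 and the upstream start is not annotated in this set. The noncoding gene 8030451A03Rik lies across Tnc on the other strand, at 2.80 and 1.97 TPM, so reads between the strands may be shared.

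By TPM, the highest single transcript of tenascin R was an RNA with no coding sequence. Tnr-205, a 660-nt RNA of 2 exons annotated as retaining an intron, had 1.67 and 1.95 TPM, or 43.2% and 50.0% of the gene. Tnr-202, the full coding transcript of 12202 nt, had 1.14 and 1.21 TPM. The interval of Tnr-205 overlapped that of Tnr-202 in both libraries. Tnr-201, a shorter full coding transcript, had 0.79 and 0.59 TPM. By estimated counts the order was the other way, with 75.5% and 79.8% for Tnr-202 and 5.11% and 5.97% for Tnr-205, which had 24.3 and 29.9 counts. The antisense gene Gm38039, at 12.8 and 10.8 TPM, lies within the last exon of Tnr-202 on the other strand, so the counts of that transcript are uncertain.

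All 4 detected members with several transcripts, Bcan, Vcan, Tnc and Tnr, had the same leading transcript in both libraries, beside 91.9% of 10400 such genes. In 1 of these 4, Tnr, the leader was not annotated as coding, beside 8.11% of coding genes with a steady leader. Hapln2, below 1 TPM, showed the same on very few reads: its full coding transcript (1711 nt) had 0.08 TPM and 0 TPM, from 3.23 and 0 counts. The pair of Hapln2 RNAs annotated as retaining an intron had 0.41 and 0.55 TPM (2338 nt) and 0.18 and 0.19 TPM (521 nt). The remaining 5 members have 1 transcript each in the tables. For 30 of the 33 transcripts the length equals that in GENCODE M21. The models of Hapln1, Hapln3 and Hapln4 differ in length, so nothing is said of their exons.

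The pools agreed closely on the abundant members. After TMM scaling, replicate 2 over replicate 1 was 1.15-fold for Ncan with a 95% exact (Clopper-Pearson) interval of 1.13 to 1.17, 1.08-fold (1.05 to 1.11) for Tnc, 1.07-fold (1.03 to 1.11) for Bcan and 0.916-fold (0.879 to 0.954) for Vcan. These intervals cover counting error only. On the log2 scale Ncan was higher in replicate 2 by 0.20 and Vcan differed by -0.13, while Bcan and Tnc, at 0.09 and 0.11, came to -0.02 and -0.0035 when scaled by spike-in totals, which moves the median gene by -0.11. By the same totals Ncan came to 0.09 and Vcan to -0.24, and as a TPM ratio Vcan came to -0.28 with a pseudocount of 1. Tnr at 0.977-fold (0.860 to 1.11) and the 4 link proteins, between 0.953-fold and 1.36-fold, had intervals that include 1.

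**Figure D3:**
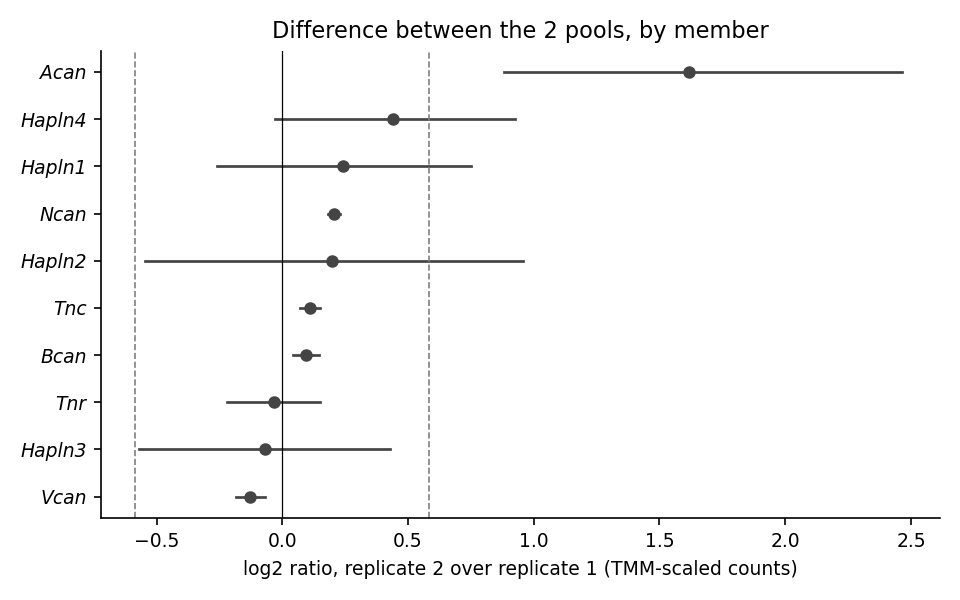
Log2 ratio of replicate 2 over replicate 1 for each gene from TMM-scaled counts, with the exact counting interval as a line; dashed lines mark 1.5-fold either way. Acan alone lies past 1.5-fold, at 1.62, and the intervals of Hapln4, Hapln1, Hapln2, Tnr and Hapln3 cross 0.

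Aggrecan was the only member past 1.5-fold. It was 3.07-fold higher in replicate 2 (interval 1.84 to 5.51), with 19 counts against 64. Past that fold were 6.43% of 17048 genes, 2.21% higher and 4.22% lower in replicate 2. The share was 25.5% among genes with a mean count of 20 to 100, the class of Acan, and 2.02% among those above, so 1 of 10 is near the background. Of the 12 cartilage genes, the 8 with enough counts to compare were all higher in replicate 2. Their median log2 ratio was 0.42, beside 1.62 for Acan and 0.0005 over all genes. The cartilage list summed to 103 and 141 TPM in replicates 1 and 2.

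The highest cartilage genes were Col9a3 at 51.4 and 75.0 TPM and Col2a1 at 20.9 and 27.3 TPM, both collagen genes. Matn1, a cartilage matrix gene named after its values were seen, had 0.45 and 1.44 TPM, a 3.11-fold difference. Of the 4 cartilage genes below the count minimum, Matn3 and Epyc were higher in replicate 2 and Snorc and Comp lower. No cartilage gene was at 0 in both libraries. The part of cartilage RNA in the level of Acan, and in that of Hapln1, was not tested.

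Versican was lower in replicate 2 under each scaling, while Bcan and Tnc were lower only by spike-in totals. After TMM scaling the log2 ratio of Vcan, -0.13, lay within the ordinary spread between the pools. That spread was an SD of 0.25 in the class averaging at least 100 counts. Among marker genes that could be compared, all 7 of meningeal fibroblasts and all 5 of microglia were lower in replicate 2. So were 4 of 5 myelinating cell genes, 4 of 6 oligodendrocyte precursor genes and 5 of 9 radial glia and astrocyte genes. Of the other cell type lists, 3 of 6 endothelium and pericyte, 1 of 7 neuron and 0 of 8 cartilage genes were lower. The median log2 ratio over all genes was 0.0005. Of the meningeal genes all 7 were lower in replicate 2, at a median log2 ratio of -0.36, and their sum was 1285 against 930.0 TPM. They were led by Ptgds at 792 and 526 TPM and Col3a1 at 204.4 and 171 TPM. The complete Vcan forms had 22.6 and 20.3 TPM in all, and among the other Vcan transcripts the fragment Vcan-209 had 2.08 TPM and 0 TPM; it was named after its values were seen. The part of RNA from any of the cell types named here in the level of Vcan was not tested.

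Markers of other cell types differed less in most lists. The 9 radial glia and astrocyte genes, led by Fabp7 at 1746 and 1815 TPM and Slc1a3 at 158 and 183 TPM, had a median log2 ratio of -0.08, with 4 higher and 5 lower in replicate 2. Oligodendrocyte precursor genes, led by Olig1 at 96.6 and 109.8 TPM and Olig2 at 13.5 and 13.1 TPM, had a median of -0.04. Of the 6 compared, 2 were higher and 4 lower in replicate 2. Of 6 genes of myelinating cells 5 were detected, with Cldn11 at 60.8 and 44.9 TPM and Mbp at 32.1 and 29.2 TPM highest, and 4 of the 5 that could be compared were lower in replicate 2, at a median of -0.14. Neuron genes, led by Tubb3 at 1406 and 1445 TPM and Stmn2 at 977 and 990 TPM, had a median of 0.18. Endothelium and pericyte genes, led by Vtn at 133 and 127 TPM and Cldn5 at 93.9 and 89.2 TPM, had a median of -0.02, and microglial genes, led by C1qb at 45.1 and 34.5 TPM and C1qa at 29.2 and 24.9 TPM, one of -0.26, with all 5 lower in replicate 2.

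**Figure D4:**
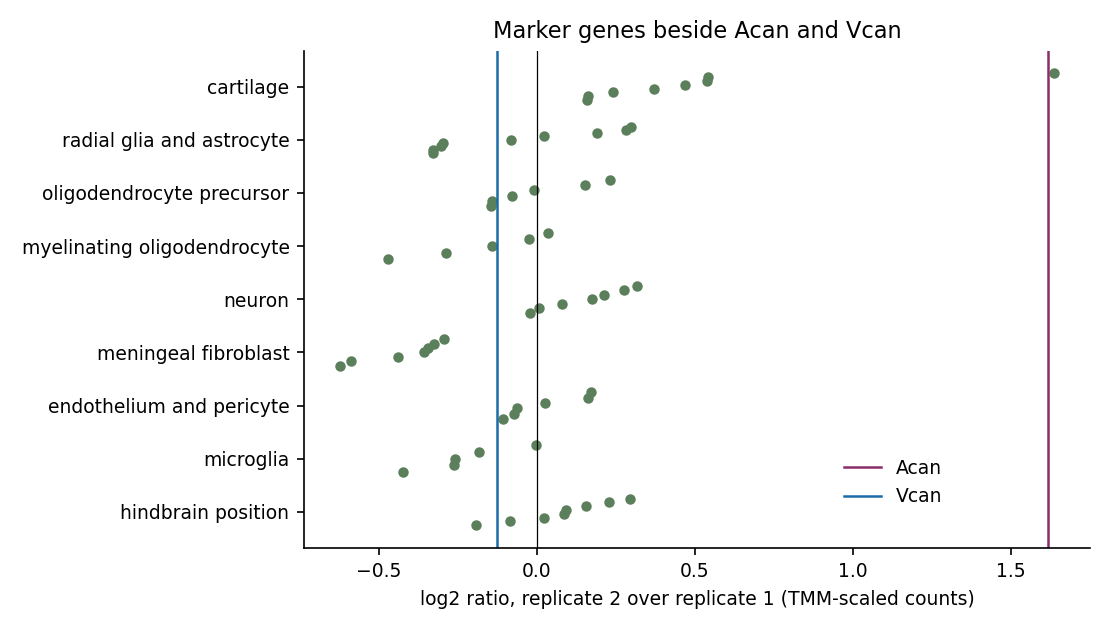
Log2 ratio of replicate 2 over replicate 1 for marker genes that reached a mean count of 20, 1 point per gene and 1 line of points per list; the vertical coloured lines stand at the ratios of Acan (1.62) and Vcan (-0.13). Cartilage genes all lie right of 0 and meningeal genes all left of it; the forebrain list is not drawn.

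The genes that make, cut or bind this matrix were mostly detected, 56 of 65 beside the background of 63.1%, with a median of 6.41 TPM. None of the 61 with enough counts passed 1.5-fold between the pools, beside 6.43% of 17048 genes. In the class averaging at least 100 counts, to which most of the 61 belong, that share was 2.02%. A count of 0 is therefore not far from the background. Hyaluronan synthases, which make the chain that lecticans bind, were low: none of the 3 was detected in both libraries, Has3 being highest at 1.18 and 0.73 TPM, then Has1 at 0.87 and 0.85 TPM and Has2 at 0.44 and 0.36 TPM. With TPM rescaled over nuclear protein-coding genes Has1 passed the minimum, at 1.11 and 1.08. Genes that degrade hyaluronan were higher, with Hyal2 at 53.9 and 53.1 TPM, Cemip2 at 22.7 and 17.9 TPM and Hyal1 at 5.97 and 6.84 TPM. The highest of that list below the minimum was Cemip at 0.75 and 0.50 TPM, and the sperm hyaluronidase gene Spam1 was at 0 counts in both.

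All 11 genes that start or extend chondroitin sulfate chains were detected, at a median of 11.6 TPM. B3gat3, which completes the linker to the core protein, had 71.2 and 76.6 TPM, the chain polymerase gene Chpf 37.0 and 43.2 TPM, and the linker enzyme gene B4galt7 35.9 and 37.1 TPM. Of 10 genes for sulfation and epimerisation 9 were detected, at a median of 6.04 TPM. Chst12, a 4-O-sulfotransferase, had 19.8 and 20.7 TPM, Chst15, which adds a further sulfate to 4-sulfated chains, 16.8 and 20.6 TPM, and the epimerase-like gene Dsel 8.02 and 7.99 TPM. Chst13 was the one below the minimum, at 0.10 and 0.02 TPM.

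**Figure D5:**
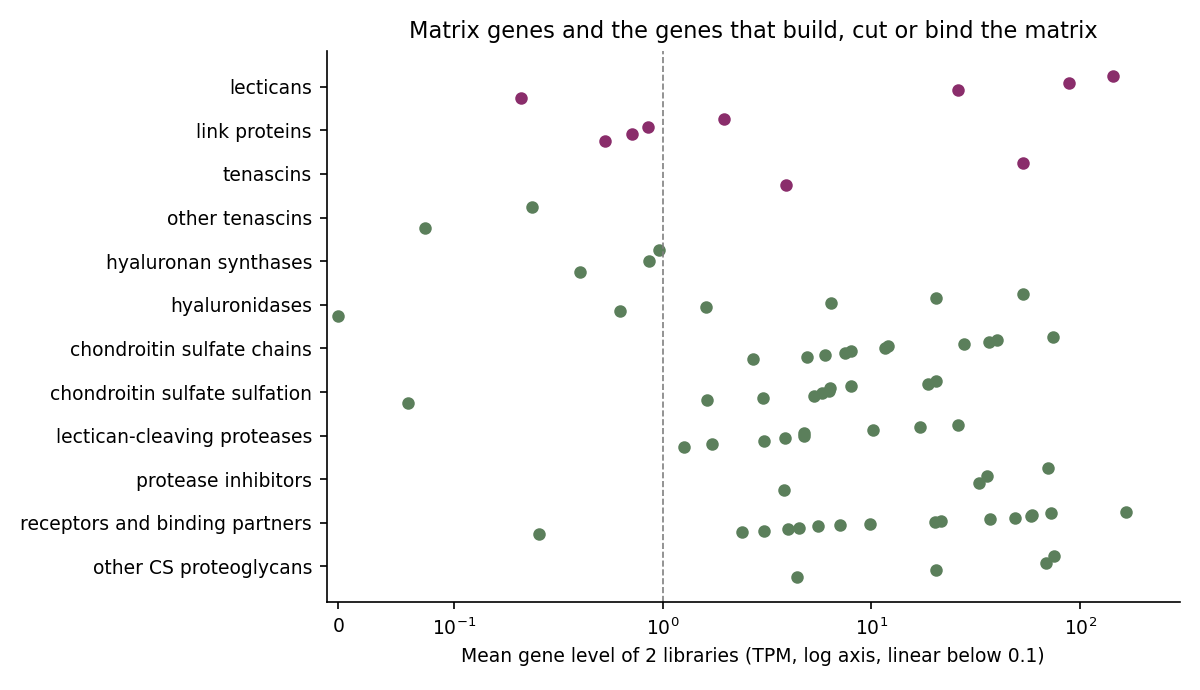
Mean level of the 2 libraries in TPM (log axis, linear below 0.1) for each gene, by list; the 10 lecticans, link proteins and tenascins are purple, the related genes green, and the dashed line marks 1 TPM. Hyaluronan synthases lie at 0.955 TPM or less, while all 11 genes for chondroitin sulfate chains lie above 1 TPM.

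All 9 genes for proteases that cut lecticans were detected. The gelatinase genes Mmp9 and Mmp2 were highest, at 21.6 and 30.3 TPM and at 18.1 and 16.2 TPM, followed by Adamts1 at 9.15 and 11.3 TPM. All 4 inhibitor genes were detected. Timp2 at 66.6 and 73.6 TPM, Timp3 at 37.6 and 34.1 TPM and Timp4 at 30.9 and 34.4 TPM lay above each of these proteases, and Timp1 lay lower, at 4.25 and 3.36 TPM.

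Among 16 receptors and partners, 15 were detected. Ptprs, a phosphatase receptor for chondroitin sulfate chains, was highest at 155 and 176 TPM. It lay above Ncan within each library, but the 2 genes overlap, as Ncan had 156 TPM in replicate 2. Itgb1, an integrin subunit that takes part in tenascin C binding, had 73.4 and 71.3 TPM, and the related phosphatase gene Ptprd 59.2 and 58.4 TPM. Stab2, a hyaluronan scavenger receptor, was the one below the minimum, at 0.37 and 0.14 TPM. All 4 further chondroitin sulfate proteoglycan genes were detected, with Cspg5, a neural membrane proteoglycan, at 70.4 and 78.6 TPM, Dcn at 76.9 and 60.1 TPM and Bgn at 19.6 and 21.1 TPM.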

How the data were processed

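Per the labels, each library was total RNA of 1 pool of hindbrains, extracted with a mirVana kit. Per the file headers and accompanying notes, the authors' tables were made on mm10 with GENCODE M4, 1 library each, without pooling. Which aligner, quantifier and strand setting were used is not given in the sources used here. Deposited estimated counts, for genes and for transcripts, are not normalized. The deposited TPM is scaled over every feature of a file. The deposited FPKM served as an alternative. The deposited interval bounds, a signal on the TPM scale, belong to a posterior estimate and need not enclose the TPM. The deposited percent of each transcript was set aside for shares computed from transcript TPM. The deposited length columns (other) gave transcript lengths.

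Symbols, positions and transcript types came from GENCODE M21 on GRCm38, the assembly of mm10, by identifier without version: 42462 of 43346 genes matched, and the rest held 0.200% of counts. The listed gene Tmem2 was found as Cemip2 through RefSeq synonyms. Spike-ins (2.86% and 3.09% of counts) and features with numeric identifiers were left out of the totals. Estimated counts were rounded to whole numbers and scaled with TMM in edgeR 4.0.16 (R 4.3.3), with a prior count of 0.5 and a mean count of 20 or more. The ratio was tested on simulated data with known folds. Chi-square of the gene counts between libraries, divided by its degrees of freedom, was 12.4, above sampling noise, so both were kept as replicates. Alternatives used DESeq2 1.42.0 size factors among others.

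The members and lists were chosen with earlier results of these data known. Named were all members, their transcripts at 10% or more of the gene, the 3 highest genes of each related list with the highest not detected, and the 2 highest markers of each list. Others are said to be named after their values were seen. With 2 libraries no gene was sought over the whole data for likeness of pattern. The ratios of the marker lists are nevertheless shown beside those of Acan and Vcan. One marker value is not reported here.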

Additional observations from a re-analysis of the deposited data

How the results depend on the processing

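The count of members past 1.5-fold between the pools, 1, was 0 at a mean count of 100 or more, which leaves Acan out, and 0 for TPM ratios with a pseudocount of 1, where the log2 ratio of Acan came to 0.26; at the lower fold tried it was 2, Acan and Hapln4. Under library totals, spike-in totals, DESeq2 size factors, posterior counts, no count minimum and a pseudocount of 0.1 it was 1. Members detected were 8 at a minimum of 0.5 TPM, 5 at 2 TPM, and 6 under the other alternatives, each library alone included. Related genes detected ranged from 52 to 59. The background of 63.1% holds for the minimum of 1 TPM, and no share of all genes is given for the other minimums. The lectican was higher in 3 of 4 pairs under each alternative. Leading transcripts were also counted by estimated count, an alternative chosen after seeing the data, and the leader was then the same in both libraries for 4 members too. Acan and the 4 link proteins rest on fewer than 100 counts per library, which limits their order. The mean level of Hapln2 came to 1.025 TPM by posterior mean. That of Hapln4 came to 1.08 TPM when rescaled over nuclear protein-coding genes. No paired analysis was possible because there is 1 group.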

Other observations

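The 8 protein-coding genes on the outer sides of the pairs of lectican and link protein genes differed widely in level. Mfge8, which encodes a secreted protein with EGF-like and discoidin domains, lies 2749 bases from Hapln3 and had 161.7 and 169 TPM, beside 2.00 and 1.95 TPM for Hapln3. Its paralogue Edil3 lies next to Hapln1, 216572 bases away, at 46.9 and 46.6 TPM, beside 0.48 and 0.58 TPM for Hapln1. Nes, which encodes the intermediate filament nestin of neural progenitors, lies 7079 bases from Bcan and had 32.9 and 25.2 TPM. On the far side of Hapln2, Gpatch4 had 29.0 and 28.9 TPM. Beyond Vcan, the DNA repair gene Xrcc4 had 12.7 and 11.8 TPM, and beyond Ncan, Rfxank had 8.44 and 8.02 TPM. Isg20, before Acan, had 1.83 and 0.71 TPM. The gene beyond Hapln4, Tm6sf2, had 0.77 and 2.24 TPM and so differed more between the pools than Hapln4 did, on the TPM scale.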
